A study of Caenorhabditis elegans with 2 samples.

Results

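The genes described here are 10 genes of the vacuolar H+-ATPase (V-ATPase) of the nematode Caenorhabditis elegans: vha-1, vha-2, vha-3, vha-4, vha-5, vha-6, vha-8, vha-11, vha-12 and vha-13. They are 10 of 22 annotated V-ATPase genes considered and of 19973 nuclear protein-coding genes in all. They were taken by gene name from a list chosen by peak values of this same experiment, namely the peaks in the series-wide, single-replicate and ranked lists. Their peak values are therefore given as a description, with no test. Chromatin immunoprecipitation followed by sequencing (ChIP-seq) had been carried out with an antibody against GFP on whole young adults aged 64 hours of strain RW12264, which carries st12264[Y53G8AR.9::TY1::EGFP::3xFLAG] on chromosome III. The tag had been inserted by CRISPR at Y53G8AR.9, a gene whose product RefSeq names a C3H1-type domain-containing protein, and the worms had been synchronised by starvation as L1 larvae after bleaching. The series holds 1 group of 2 biological replicates, so no conditions were compared, and a possible control named in the labels was not analysed here. Whole worms mix all tissues, and the labels do not say which of them supplied the tagged protein.

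The V-ATPase is a rotary pump that uses ATP to move protons into lysosomes, endosomes and secretory vesicles, and across some plasma membranes. Its soluble V1 sector holds the catalytic A and the nucleotide-binding B subunits, a central rotor, and the stator subunits that hold the sector in place. Its membrane V0 sector holds the large a subunit and the ring of c proteolipids that carries the protons. In this worm the pump is also known for acidifying the gut lumen and for work in the excretory canal and the hypodermis.

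A gene was called here when the summit of a peak in the authors' conservative list lay between 500 bp before its start and 500 bp past its end. By that rule 6 of the 10 genes were called (vha-13, vha-12, vha-11, vha-8, vha-1 and vha-2), against 12.4% of all protein-coding genes. All 4 V1 genes among them were called, and so were 2 of the 6 V0 genes, the proteolipid genes vha-1 and vha-2. The genes without a call were the proteolipid genes vha-3 and vha-4 and the a-subunit genes vha-5 and vha-6. The called genes held 11 conservative peaks of 2742 in all, which merged into 9 separate regions because vha-11 and vha-8 each had a pair of overlapping peaks at the gene's end.

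The sequences around the summits at the starts of the called genes are shown because 5 of the 6 called genes had one. Each line gives the bases on the strand of the gene from 50 bp before to 50 bp after the summit, from the RefSeq WBcel235 genome (the ce11 assembly), with matches to a searched motif in capitals. They lie at X:4190676-4190776 (plus strand, vha-12), IV:6790610-6790710 (plus strand, vha-8), III:9780774-9780874 (plus strand, vha-1) and IV:2314455-2314534 (minus strand, vha-11, where the 21 bases that fall in the UTR are left out so that the line opens with the start codon).
vha-12: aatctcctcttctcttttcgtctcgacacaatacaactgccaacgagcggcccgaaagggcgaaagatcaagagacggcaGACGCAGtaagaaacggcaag
vha-8: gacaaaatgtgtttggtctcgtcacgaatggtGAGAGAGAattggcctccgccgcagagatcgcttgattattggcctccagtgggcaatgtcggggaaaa
vha-1: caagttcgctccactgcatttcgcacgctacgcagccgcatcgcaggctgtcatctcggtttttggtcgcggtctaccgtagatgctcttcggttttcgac
vha-11: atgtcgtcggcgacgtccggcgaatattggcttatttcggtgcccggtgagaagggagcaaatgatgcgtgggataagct
The capitals mark CTGCGTC, read here on the opposite strand as its reverse complement, at vha-12 and the GAGAGA repeat at vha-8. No searched motif matched in the vha-1 and vha-11 windows.

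The summit at the start of vha-2 fell inside its coding sequence, in a stretch closely matched in its paralogue vha-3, whose ranked region had its summit at nearly the same place. The pair is shown over coding bases 54 to 154 of both genes, with capitals at the 18 positions that differ. The stretch lies at III:9782218-9782318 on the plus strand for vha-2 and at IV:2315792-2315892 on the minus strand for vha-3.
vha-2: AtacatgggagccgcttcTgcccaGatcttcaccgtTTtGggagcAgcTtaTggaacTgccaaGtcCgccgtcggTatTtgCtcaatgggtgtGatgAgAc
vha-3: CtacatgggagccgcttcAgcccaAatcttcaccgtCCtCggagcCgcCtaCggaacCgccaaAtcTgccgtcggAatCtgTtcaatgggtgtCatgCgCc
These stretches were 82.2% identical, and the whole coding sequences, 483 bases each, were 85.1% identical, with 23 bp as the longest run of shared bases. The summit of vha-2 lay at coding base 104 and that of vha-3 at coding base 99. Whether reads were shared between these genes was not tested, since no reads were used.

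**Figure D1:**
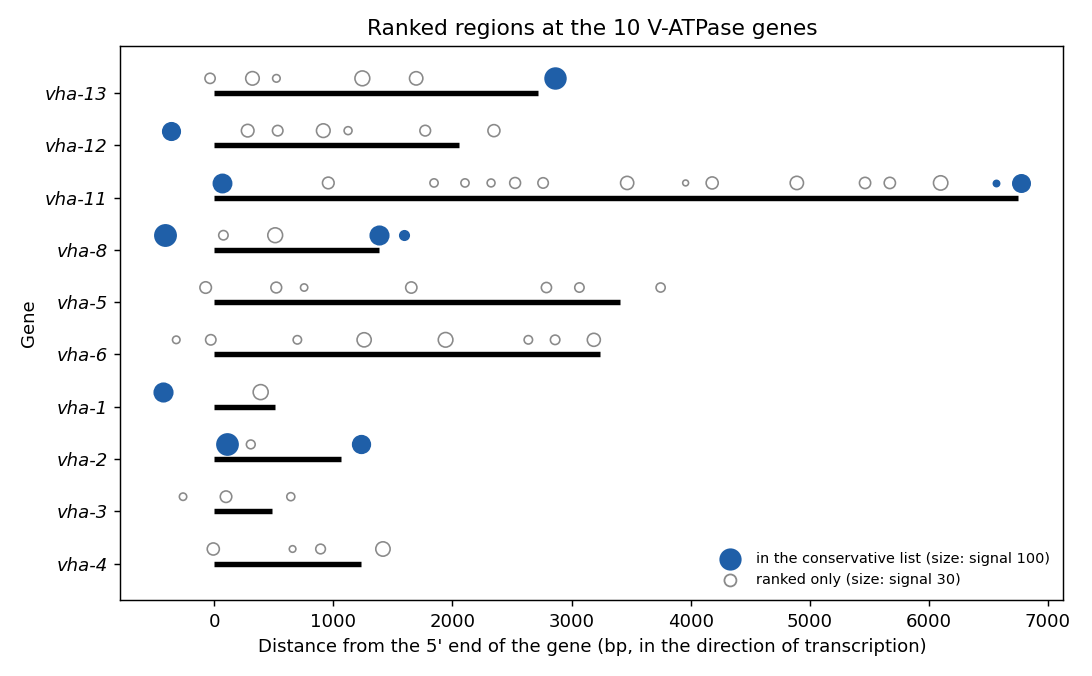
Position of every ranked region with its summit in the window of each gene, in bp from the gene's 5' end in the direction of transcription, with filled circles for regions in the conservative list, open circles for regions that were only ranked, circle area for signal and a black bar for the gene. The filled circles lie at the starts and ends of 6 genes, and vha-3, vha-4, vha-5 and vha-6 have open circles only.

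Of the 61 ranked regions at these genes, 11 passed into the conservative list, whose lowest score of 830 corresponds to an irreproducible discovery rate (IDR) of 0.01. The IDR measures how consistently a region ranks in the pair of replicates. The ranked list itself holds 87350 regions, and it had a region at all 10 genes, against 73.2% of all protein-coding genes. Presence in the ranked list therefore says little about a gene, and the score and the signal carry the description that follows. The signal is the authors' peak value, whose scale is not stated in the sources used here.

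vha-13 encodes the catalytic A subunit, the site of ATP hydrolysis. Its only conservative peak, at V:14354413-14354732, lay past the gene, with its summit 151 bp beyond the end. The signal was 104.1 in the list of both replicates together, 42.69 in replicate 1 and 45.16 in replicate 2, and it was the only one of the 11 peaks with a higher value in replicate 2. It was in the thresholded list of neither replicate, with scores of 747 in replicate 1 and 781 in replicate 2. The same summit lay 163 bp inside Y49A3A.3, in a coding exon of that gene, which encodes the tRNA modification enzyme TRM13 according to RefSeq. At the start of vha-13 the strongest ranked region reached 40.18, at +320, with signals of 17.89 in replicate 1 and 15.04 in replicate 2 and an IDR of 0.202. A further conservative peak, with a signal of 73.4, had its summit 560 bp before the gene, just outside the window.

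vha-12 encodes the B subunit, which binds nucleotide beside the A subunit. Its peak at X:4190566-4190885 had its summit at -368 relative to the start, and the nearest other start was that of mrp-6, with the summit at -3970 from it. The signal was 71.71 for both replicates together, 41.83 in replicate 1 and 27.59 in replicate 2. The peak was in the thresholded list of replicate 1, with a score of 880, and not in that of replicate 2, where its score was 647. Of the 5 start peaks, this was the weakest, and it ranked 1312 of the 2742 conservative peaks by signal.

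vha-11 encodes the C subunit, a stator part that links V1 to V0 and leaves when the pump comes apart. Its start peak at IV:2314345-2314664 had its summit at +62, in the first coding exon. The signal was 78.74 for both replicates together, 44.02 in replicate 1 and 39.18 in replicate 2, and both replicate lists held it. At the other end of this 6753 bp gene, a peak at IV:2307636-2307955 had its summit 19 bp past the end, with signals of 70.51 together, 41.63 in replicate 1 and 25.16 in replicate 2. Neither replicate list held that end peak, where the scores were 533 in replicate 1 and 203 in replicate 2. The overlapping entry at IV:2307842-2308161, with its summit in the 3' UTR, shared 114 bp with it and matched the same replicate regions, but its own signal was 3.409, near the bottom of the conservative list at rank 2722.

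The vha-11 gene also held 13 ranked regions that were not called, the most of any of the 10 genes, as the map of ranked regions shows. The best of them, in an intron at +6100, had a signal of 46.03, a score of 556 and an IDR of 0.0458.

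vha-8 encodes the E subunit, another stator part. It had the strongest peak of the 10 genes, at IV:6790500-6790819, with its summit at -414. The signal was 108.7 for both replicates together, 77.55 in replicate 1 and 37.3 in replicate 2. That ratio of 2.08 was the highest among the 11 peaks, and only the list of replicate 1 held the peak. The start of C17H12.2, a Mab-21 domain gene, was closer to this summit than that of vha-8, with the summit at -172 from it. An annotated noncoding RNA, C17H12.33, lay within 500 bp.

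At the end of vha-8, the peak at IV:6792293-6792612 had its summit in the 3' UTR at -2 relative to the gene's end, with signals of 80.63 together, 45.44 in replicate 1 and 43.7 in replicate 2. Both replicate lists held it, with scores of 1000 in replicate 1 and 959 in replicate 2. The overlapping entry at IV:6792503-6792822 shared 110 bp and the same replicate regions with it, and its own signal was 16.31. Between start and end, the best ranked region lay in a coding exon at +511 with a signal of 49.42 and a score of 708, below the threshold.

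Among the V0 genes, vha-1 and vha-2 encode c proteolipids, whose ring turns in the membrane and carries the protons. They are neighbours on chromosome III, on the same strand with 400 bp between them. The vha-1 peak at III:9780664-9780983 had its summit at -430, with signals of 80.89 together, 41.6 in replicate 1 and 37.96 in replicate 2, and both replicate lists held it. The start of sqv-3, which encodes a galactosyltransferase, lay on the other side of the summit, with the summit at -470 from it. The vha-2 start peak at III:9782108-9782427 had its summit at +104, with signals of 107.4 together, 52.71 in replicate 1 and 49.67 in replicate 2. It was the only one of the 11 peaks that scored 1000 in both replicates, and its summit lay 505 bp past the end of vha-1, just outside that gene's window.

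Inside vha-1, a region at III:9781483-9781802 had its summit in a coding exon, at +389 from the start and -120 relative to the gene's end. It had a signal of 50.89 and a score of 628, and was not conservative. The other series-wide thresholded list did hold it, with a score of 989, and replicate 1 alone held an overlapping peak of 34.75 at III:9781660-9781923. At the far end of vha-2, the peak at III:9783233-9783552 had its summit 169 bp past the gene, with signals of 73.05 together, 47.15 in replicate 1 and 28.44 in replicate 2. It was the only one of the 11 peaks missing from the other series-wide list, neither replicate list held it, and its score in replicate 2 was 80. The summit lay 65 bp inside R10E11.6, an EF-hand domain gene, in a coding exon.

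**Figure D2:**
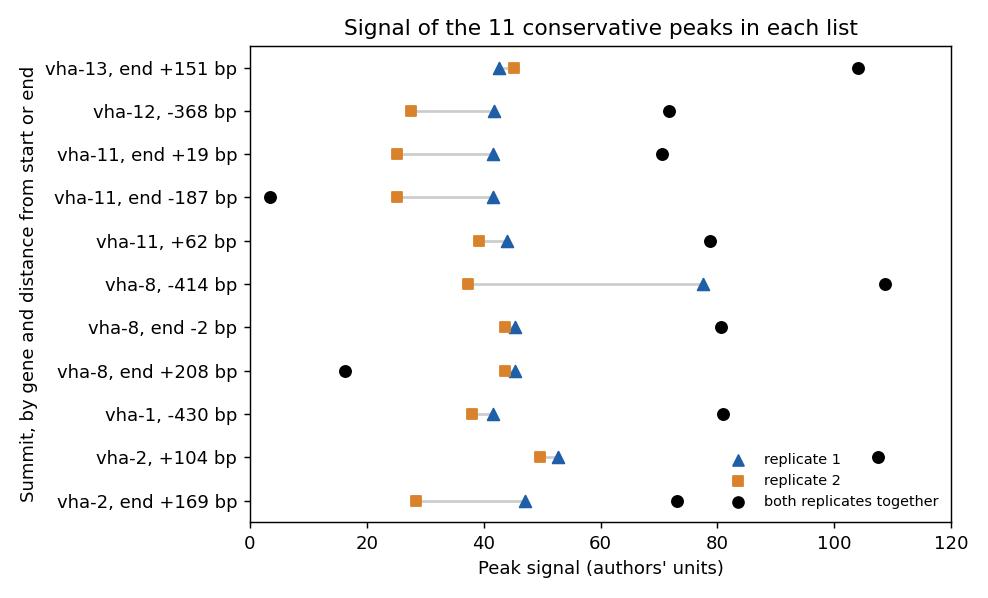
Signal in the authors' units (x axis) of the 11 conservative peaks, 1 per row, in replicate 1 (triangles), replicate 2 (squares) and both replicates together (circles). The combined values are above both replicates in 9 rows and below both at the overlapping entries of vha-11 (3.409) and vha-8 (16.31), and the vha-8 peak at -414 has the widest gap between replicates.

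The 4 genes without a call had ranked regions with weaker signals and lower scores. vha-3, the paralogue of vha-2, had its strongest region at IV:2315687-2316006 with a signal of 27.21 together, 28.03 in replicate 1 and 14.25 in replicate 2, against 107.4, 52.71 and 49.67 at the matching place in vha-2. Its score was 334, for an IDR of 0.157. vha-3 lies on the minus strand 892 bp before vha-11, and the vha-11 start summit was the nearest conservative one, 955 bp past the end of vha-3.

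vha-4 encodes the c'' proteolipid, a larger member of the ring. Its strongest region, at II:7877740-7878059, had its summit 182 bp past the end and inside an intron of T01H3.2, with signals of 46.02 together, 21.09 in replicate 1 and 22.0 in replicate 2. The score of 519 and the IDR of 0.0561 left it below the threshold. The region at the vha-4 start, at -9, had a signal of 30.74 and no overlapping region in either replicate's ranked list. The nearest conservative peak, with a signal of 70.72, lay 1271 bp before the start.

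vha-5 and vha-6 encode a subunits, the large membrane stators that steer the pump to particular membranes. VHA-5 is known from the hypodermis and the excretory canal, and VHA-6 from the apical membrane of the intestine. The strongest vha-5 region lay at -73, at IV:8303735-8304054, with signals of 27.23 together, 13.61 in replicate 1 and 12.9 in replicate 2, and the best score at that gene, 182, was the lowest best score of all 22 V-ATPase genes. The strongest vha-6 region lay in a coding exon at +1942, at II:11436350-11436669, with signals of 47.92 together, 22.54 in replicate 1 and 22.01 in replicate 2 and a score of 574. At its start, vha-6 had a signal of 20.92 and no overlapping region in either replicate's ranked list. The nearest conservative summit lay 37256 bp from the vha-5 gene and 14736 bp from the vha-6 gene.

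**Figure D3:**
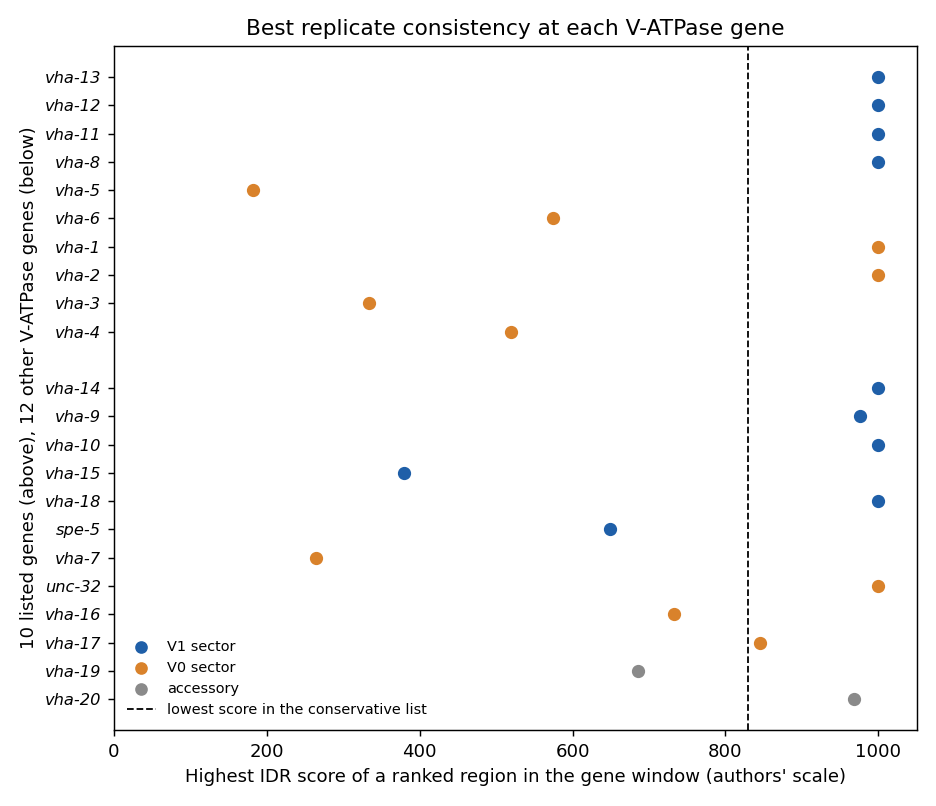
Highest IDR score of any ranked region in the window of each V-ATPase gene (x axis, the authors' scale, capped at 1000), with the 10 genes above and the 12 other V-ATPase genes below, coloured by sector. The dashed line marks 830, the lowest score in the conservative list, and vha-5 stands furthest to the left at 182.

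A conservative summit was found at 5 of the 10 genes within 500 bp of a coding start (vha-12, vha-11, vha-8, vha-1 and vha-2), against 6.5% of all protein-coding genes. A summit within 500 bp of the gene's end was found at 4 (vha-13, vha-11, vha-8 and vha-2), against 6.99%. None of the end summits at these 4 genes lay within 500 bp of the gene's own start. Both kinds were present at vha-11, vha-8 and vha-2, 3 of the 10, against 2.17%. In a short gene a single summit may count as both kinds in the 6.99% and the 2.17%. No conservative summit lay in the body of any of the 10 genes. For 5 of the 11 summits the nearest coding start was that of another gene, so the assignment of these peaks to the V-ATPase genes rests on the window.

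The start peaks had signals from 71.71 to 108.7, and the end peaks from 3.409 to 104.1. GC content within 50 bp of the summit was 51.5% to 56.4% at the 5 start summits, with a median of 53.5%. It was 21.8% to 44.6% at the 6 end summits, with a median of 30.2%, and these ranges did not overlap. The 6 end summits are not 6 separate cases, because they include the overlapping pairs of vha-11 (25.7% and 29.7%) and vha-8 (30.7% and 21.8%). The end summits outside these pairs had 44.6% (vha-13) and 33.7% (vha-2). Over all conservative peaks the median was 46.53% for the 1224 summits within 500 bp of any coding start and 39.6% for the 694 that were near a gene's end and no start, while the genome had 35.4%. All 5 start summits of the 10 genes were thus at or above the upper quartile of 51.49% for start summits of the whole list. At the other V-ATPase genes the start summits had 54.5% (vha-20), 53.5% (vha-10) and 35.6% (vha-18). The end summits there had 47.5% (vha-9), 41.6% (vha-14), 38.6% (vha-17) and 37.6% (unc-32), so at those genes the ranges overlapped. The end summits of vha-13 and vha-2 count among those near a start in the whole list, because of their neighbours.

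Sequence motifs were sought as exact letters on both strands within 50 bp of each summit, a window of 101 bp. The block of 8 T, TTTTTTTT, was present at 4 of the 11 summits, 36.4%, against 4.89% of all conservative summits. These were the paired end summits of vha-11 and vha-8, whose windows lie beside each other within 2 merged regions, so they are not 4 separate cases. Among all summits near a gene's end and no start, 6.77% held the block. CTGCGTC was present at 1 of the 11 summits, the start of vha-12, against 5.22%, and GAGAGA at 1, the start of vha-8, against 13.9%. TTTCAG, searched for as a splice acceptor sequence, was present at 1, the vha-8 summit 208 bp past the end, against 12.3%.

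The other searched letters were absent from all 11 windows. Their shares of all conservative summits were 3.68% for the E-box CACGTG, 0.401% for the longer TCACGTGA that contains it, 6.56% for the GATA core TGATAA, 1.2% for the forkhead site GTAAACA, 4.74% for TGACGT, 5.73% for TATAAA and 3.98% for GGGCGG. No match says only that these letters are not in these windows.

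The thresholded list of replicate 1 called 5 of the 10 genes (vha-12, vha-11, vha-8, vha-1 and vha-2), against 7.3% of all protein-coding genes. That of replicate 2 called 4 (vha-11, vha-8, vha-1 and vha-2), against 6.55%. Of the 11 conservative peaks, 5 overlapped a peak in both replicate lists, 2 only in that of replicate 1, 0 only in that of replicate 2 and 4 in neither. Over all 2742 conservative peaks the shares were 29.1%, 15.8%, 12.8% and 42.4%. The vha-8 end pair makes up 2 of the 5 and the vha-11 end pair 2 of the 4, though each pair matched the same replicate regions. Each pair also enters the replicate ratios that follow as 2 equal values. The signal of replicate 1 over that of replicate 2 had a median of 1.12 at the 11 peaks, with a range of 0.945 to 2.08, against a median of 1.21 over 2677 conservative peaks with a region in both. In both sets the signal was usually higher in replicate 1.

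By strength, the 11 peaks had a median signal of 78.74, against 70.4 over all conservative peaks, whose highest was 883.5. The strongest, at vha-8, ranked 537, with 80.5% of conservative peaks at or below it, and vha-2 and vha-13 followed at ranks 550 and 596. For 9 of the 11 peaks at least 50.1% of conservative peaks lay at or below them, the lowest of these being the vha-11 end peak. The remaining pair were the overlapping entries of vha-11 and vha-8, at 0.766% and 4.08%.

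**Figure D4:**
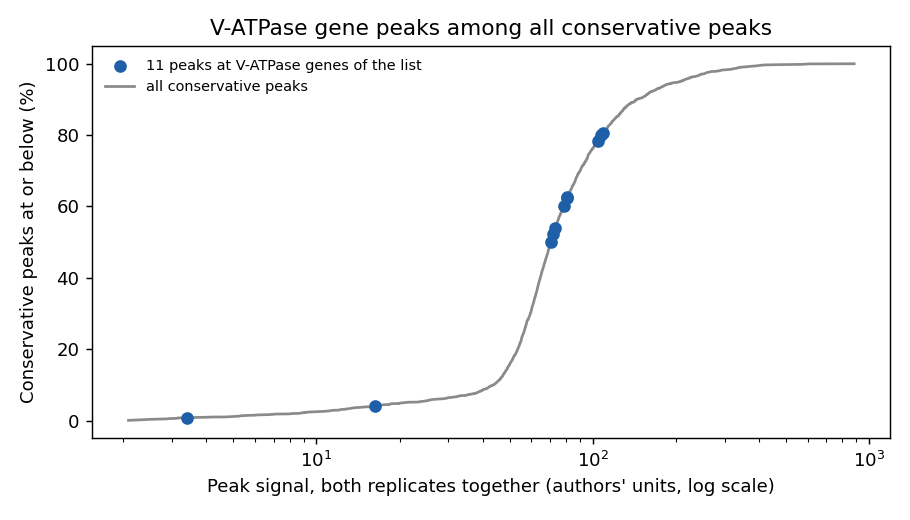
Cumulative share of the 2742 conservative peaks (y axis, %) by signal of both replicates together (x axis, authors' units, log scale), with the 11 V-ATPase gene peaks as points. The points lie between 50.1% and 80.5% except the overlapping entries at 3.409 and 16.31.

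Gene length bears on a rule that counts summits over a whole gene. Among protein-coding genes cut into 3 groups of about equal number by length, the share called was 10.2% in the short group (30 to 1458 bp), 11.2% in the middle group (1459 to 2917 bp) and 15.9% in the long group (2918 bp and above). Of the 10 V-ATPase genes, 5 were short, 2 middle and 3 long. The 6 called genes ran from 510 bp (vha-1) to 6753 bp (vha-11), the longest of the 10, and those with no call from 486 bp (vha-3) to 3404 bp (vha-5). The part of gene length in the calls was not tested.

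The 12 other V-ATPase genes were vha-7, vha-9, vha-10, vha-14, vha-15, vha-16, vha-17, vha-18, vha-19, vha-20, unc-32 and spe-5, and 7 of them were called, against the 12.4% of all protein-coding genes. By sector, 4 of 6 V1 genes, 2 of 4 V0 genes and 1 of 2 accessory genes among the 12 were called. In the V1 sector these were vha-14 (rotor subunit D), vha-9 (rotor subunit F), vha-10 (stator subunit G) and vha-18 (subunit H). In V0 they were unc-32 (subunit a) and vha-17 (subunit e), and among accessory genes vha-20. The 10 genes had 11 conservative peaks among 61 ranked regions, against 7 among 69 at the 12 others. Over the whole series the lists held 2742 conservative peaks and 87350 ranked regions. The 11 peaks form only 9 separate regions, because of the overlapping pairs of vha-11 and vha-8.

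By place, 5 of the 10 genes had a start summit, 4 an end summit and 3 both, against 3 (vha-10, vha-18 and vha-20), 4 and 0 of the 12 other genes. vha-14 had the strongest of these peaks, 258 bp past its end at III:9509855-9510174, with a signal of 90.56 for both replicates together, and it was the only one in the list of replicate 2. The vha-10 start peak reached 79.11 together, 45.99 in replicate 1 and 27.83 in replicate 2. A stronger vha-10 region, at I:5609078-5609397 near the gene's end, had a signal of 87.76 but a ranked score of 42, and was not conservative. The other series-wide list held it with a score of 1000, and the list of replicate 1 held an overlapping peak with a score of 843. In that series-wide list vha-10 thus had both kinds of summit, while vha-2 had a start summit only. The vha-18 start summit reached 78.51 and lay closer to the start of pos-1, at -258 from it.

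vha-9, unc-32, vha-17 and vha-20 were the weaker called genes. vha-20 had 71.49 at its start, with 45.2 in replicate 1 and 23.44 in replicate 2. vha-9 had 70.62 past its end, in a coding exon of clpp-1 and at -18 from the nearest start of that gene, with 44.13 in replicate 1 and 23.69 in replicate 2. unc-32 had 67.45, with 42.46 in replicate 1 and 34.7 in replicate 2, and vha-17 had 25.96, with 36.5 in replicate 1 and 22.13 in replicate 2. A ranked entry at IV:9322394-9322713 overlapped the vha-17 peak and matched the same replicate 1 region. Its signal was higher, at 44.94, but its score was 155, and it was not conservative. The other series-wide list held neither of these vha-17 entries. The vha-17 score of 845 was just inside the threshold, and the highest scores just outside it among all 22 genes were 810 at the end of vha-18 and 733 at vha-16.

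A list of 33 genes for lysosomes and for sensing and assembly of the pump had 13 called genes, against the same 12.4%. It was written with earlier results of these data known. In 10 of the 13 the strongest summit lay at the gene's end and in 3 at its start. The strongest was at cpl-1, a cathepsin L protease gene, 150 bp past the end, with signals of 212.6 together, 141.4 in replicate 1 and 86.02 in replicate 2, higher than at any of the V-ATPase genes. hlh-30, the TFEB orthologue that drives lysosome genes in this worm, had 94.83 at 225 bp past its end, with 58.1 in replicate 1 and 32.91 in replicate 2. mxl-3, known as a repressor of lysosomal lipase genes, had 107.7 at 191 bp past its end, with 68.27 in replicate 1 and 40.12 in replicate 2. Among the other protease genes, the signal for both replicates together was 142.2 at asp-3, 100.6 at cpr-6, 71.78 at asp-1 and 71.13 at cpr-5. Among genes for lysosomal membrane proteins it was 88.38 at clh-6, 75.41 at scav-3 and 59.82 at lmp-1, and at ccz-1, which acts in endosome maturation, it was 127.8. Of the genes for nutrient sensing at the lysosome, ragc-1 and lmtr-3 were called, with signals of 69.45 and 63.02, and raga-1, lmtr-2, lmtr-5, nprl-2, nprl-3 and flcn-1 were not. The remaining genes with no call were rbc-1, rbc-2, lmp-2, ctns-1, laat-1, cup-5, ncr-1, ncr-2, ppk-3, cpr-4, asp-4, glo-1, lipl-4 and lipl-5.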

How the data were processed

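The 10 genes and all gene and motif lists were chosen with earlier results of these data known. The authors deposited peak lists on the ce11 assembly for each of 2 replicates and for both together. Names of the aligner and peak caller: not given in the sources used here. Each deposited signal is the authors' peak value, with no stated scale or normalization. The deposited score is the authors' IDR on a scale that ends at 1000, and the ranked lists give the deposited −log10 of the IDR, from which IDR values were computed. Depth per replicate is unknown, because the lists hold no read numbers, and intervals based on depth were not computed.

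Peaks were placed on WBcel235 (Ensembl release 115 genes, RefSeq genome sequence). Coordinates are 1-based, and every peak ended within its chromosome. A replicate's value is the signal of the strongest region in its ranked list that overlaps by at least 1 bp. The genes named are the 10 genes, the 12 other V-ATPase genes, a list of 33, and genes beside a summit. The assignment of peaks to genes was checked on simulated peaks of known position. Alternatives were the other series-wide list, a 250 bp window, starts only, the nearest start, the upper 50% by signal, each replicate alone, and motif windows of 25 and 100 bp. Python 3.11.15, pandas 2.3.3 and numpy 2.4.6 were used.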

Additional observations from a re-analysis of the deposited data

How the results depend on the processing

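The 6 of 10 called genes became 6 with the other series-wide list, 4 with a 250 bp window, 5 with starts only, 5 with the nearest start and 6 with the upper 50% of peaks. Each replicate list alone gave 4 to 5. The 7 of 12 other V-ATPase genes became 6 with the other series-wide list, 5 with a 250 bp window and 5 with the upper 50% of peaks. They became 3 with starts only and 3 with the nearest start, and 1 to 4 with 1 replicate alone. The 12.4% of protein-coding genes became 12.5% with the other series-wide list, 10.3% with a 250 bp window and 7.7% with the upper 50% of peaks. It became 6.5% with starts only, 8.11% with the nearest start and 6.55% to 7.3% with 1 replicate. The causes of these shifts were not tested, beyond that each setting except the other series-wide list keeps fewer peaks or positions. Of 34 alternative values of a gene's strongest signal, 20 differed by more than 1 SD of its highest signals in the 2 replicates. All of these but the vha-8 value with the 250 bp window were single-replicate values. They were set against the signal of both replicates together, which was mostly higher than either (at vha-13, 104.1 against 42.69 and 45.16). The single-replicate values therefore cannot show how the signals depend on the processing. The 36.4% of summits with TTTTTTTT became 18.2% within 25 bp and 45.5% within 100 bp, against 1.86% and 13.2% of all conservative summits. Within 100 bp TATAAA went to 18.2%, TGATAA to 9.09% and GAGAGA to 18.2%. The shares of all conservative summits within 100 bp were 14.7% for TATAAA, 14.8% for TGATAA and 24.1% for GAGAGA. Of 22 alternative motif shares only CTGCGTC within 25 bp, at 0%, lay outside the exact binomial interval of the main share, which is wide with 11 summits. Such an interval never includes 0% when the main share is above 0%, so the loss of the only match fell outside it by construction. The interval also treats the overlapping summits of vha-11 and vha-8 as separate, so no conclusion is drawn from it. With the 250 bp window the strongest vha-8 peak was the 80.63 at its end, and vha-12 and vha-1 had no peak. In replicate 2, the highest value in the vha-1 window, 49.67, belonged to the vha-2 start peak. No paired analysis was possible because there is only 1 group. Lists of 2 replicates limit the precision, and the depth is unknown.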
